A study of Mus musculus with 2 samples.

Results

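Enrichment peaks were examined in 10 genomic intervals around maternally methylated imprinted genes in mouse embryonic stem cells. Peaks were taken where they overlapped, by at least 1 bp, an interval fixed by position around Peg3, Snrpn, Kcnq1ot1, Grb10, Mest, Peg10, Igf2r, Plagl1, Gnas or Impact. The intervals were 90 to 150 kb long and 1130 kb in all. They held 49 of the 55292 peaks of the control library (95% Poisson interval 36.3 to 64.8) and 45 of the 45579 peaks of the knockdown library (32.8 to 60.2). The control culture was E14 embryonic stem cells, a pluripotent line, transfected with a short hairpin RNA against GFP (shGFP). The other culture was the same line transfected with a hairpin against Dnmt3L (shDnmt3L). With 1 library per group there was no replicate and no test, and what differed, differed between these libraries. The level of Dnmt3L itself was not analysed here.

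The modification that was captured is uncertain. Per the labels the libraries are MeDIP and the series concerns 5-methylcytosine, whereas the labels' protocols name the Hydroxymethyl Collector, a kit made to pull down 5-hydroxymethylcytosine. The neutral term enrichment peak is used. Each peak has a score from the authors' peak caller, which is used here to rank peaks within their own list. A cut at a score of 100 is also applied to each list. It need not mark the same strength in both, since scores are not comparable between the lists. Positions are on mm9, per the submitters' processing notes.

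Genomic imprinting is the expression of a gene from only the maternal or only the paternal chromosome. At the loci studied here, DNA methylation is laid down on the maternal chromosome in the growing oocyte, by Dnmt3a with its catalytically inactive partner Dnmt3L, and is then carried through cell divisions by the maintenance methyltransferase Dnmt1. The zinc finger protein ZFP57, which recognises the methylated hexamer TGCCGC, protects these marks in embryonic stem cells. The marked regions commonly lie at the promoter of a gene or non-coding RNA that is expressed from the unmethylated paternal chromosome.

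The promoters of 5 of the genes are shown because the maternal mark is known to lie at or beside them. They are RefSeq sequences on GRCm38.p6, from 250 bases before to 50 bases after an annotated start, with CpG dinucleotides in capitals. Their coordinates belong to another build than the peaks, so no peak was placed on them.
Peg3, chr7:6730370-6730669, minus strand: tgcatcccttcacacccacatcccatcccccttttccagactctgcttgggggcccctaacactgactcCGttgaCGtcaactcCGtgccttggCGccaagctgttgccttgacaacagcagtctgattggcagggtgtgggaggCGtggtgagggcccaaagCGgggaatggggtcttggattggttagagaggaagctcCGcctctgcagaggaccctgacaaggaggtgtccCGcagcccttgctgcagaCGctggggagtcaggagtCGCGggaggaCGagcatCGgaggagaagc
Snrpn, chr7:60005150-60005449, minus strand: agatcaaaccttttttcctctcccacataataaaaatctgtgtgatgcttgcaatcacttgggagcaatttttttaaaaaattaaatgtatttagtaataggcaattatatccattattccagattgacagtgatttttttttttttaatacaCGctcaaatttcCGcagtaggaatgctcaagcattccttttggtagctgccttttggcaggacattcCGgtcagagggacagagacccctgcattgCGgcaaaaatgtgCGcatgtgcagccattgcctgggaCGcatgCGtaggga
Kcnq1ot1, chr7:143296498-143296797, minus strand: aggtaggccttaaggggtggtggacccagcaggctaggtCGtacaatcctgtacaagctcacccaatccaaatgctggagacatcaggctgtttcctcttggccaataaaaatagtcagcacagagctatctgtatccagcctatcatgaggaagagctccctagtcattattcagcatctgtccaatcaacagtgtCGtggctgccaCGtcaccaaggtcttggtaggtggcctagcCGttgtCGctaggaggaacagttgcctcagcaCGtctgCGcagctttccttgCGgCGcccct
Mest, chr6:30737800-30738099, plus strand: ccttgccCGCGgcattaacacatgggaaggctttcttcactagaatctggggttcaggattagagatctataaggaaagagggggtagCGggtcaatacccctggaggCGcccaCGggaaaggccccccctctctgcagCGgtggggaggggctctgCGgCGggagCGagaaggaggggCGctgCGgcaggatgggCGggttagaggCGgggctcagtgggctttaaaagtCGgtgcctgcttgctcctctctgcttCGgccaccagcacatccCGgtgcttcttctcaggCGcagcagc
Plagl1, chr10:13090582-13090881, plus strand: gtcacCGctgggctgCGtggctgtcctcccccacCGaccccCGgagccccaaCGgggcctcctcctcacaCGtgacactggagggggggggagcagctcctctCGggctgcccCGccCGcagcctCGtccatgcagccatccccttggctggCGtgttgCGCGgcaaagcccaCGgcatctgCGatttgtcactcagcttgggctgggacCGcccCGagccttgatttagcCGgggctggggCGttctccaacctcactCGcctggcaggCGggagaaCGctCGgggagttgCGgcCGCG
The Peg3 window shown held 13 CpG dinucleotides, that of Snrpn 7, of Kcnq1ot1 9, of Mest 17 and of Plagl1 26. Other promoters of Snrpn, not shown, held 4, 3 and 2, and other promoters of Mest 8 and 17. The median of all 32851 promoters of the table was 7. In the whole table, 8 of the 10 genes had an entry, with 17 promoters, and Peg10 and Impact had none. The hexamer TGCCGC, searched as TGCCGC and GCGGCA to cover both strands, was found in 5 of these 17 promoters, against 11.6% of all promoters of the same length. These were 1 promoter each of Snrpn, Grb10 and Plagl1 and 2 of Mest whose windows start 3 bases apart and overlap. The hexamer itself holds a CpG, and the 17 promoters held a median of 16 CpG dinucleotides, against 7 in all promoters. The shares were therefore not taken from promoters of like CpG number. The match is a description of the letters and names no binding site.

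All 10 loci carried at least 1 peak in each library, and at 9 of them the peaks of highest score lay in the same place. At Impact the shared peak lay near the edge of the interval. No shDnmt3L peak was left there when the intervals were narrowed by 20 kb. Which peak, if any, covers the maternal mark of a locus was not determined. Every shGFP peak with a score of 100 or more, 28 of 28, overlapped a shDnmt3L peak. Over the whole shGFP list 2.21% of the peaks at this score had no partner. Including weaker peaks, 40 of 49 shGFP peaks had a partner (81.6%, Wilson 95% interval 68.6 to 90.0%), against 74.5% of the whole list. Of the 45 shDnmt3L peaks, 38 had a partner (84.4%, 71.2 to 92.3%), against 87.4% of the whole list. Both shares lay near those of the lists, and the intervals cover counting error only.

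The peak of highest score lay in the same place in both libraries at 9 of the 10 loci, with Peg3 the exception. At the 7 loci with 2 or more peaks in each list, the top peaks overlapped at 6. Across the genome they overlapped in 72.9% of the 8938 tiles of 100 kb with 2 or more peaks in each list. In shGFP, 9 of the 10 top peaks ranked in the upper 10% of their list, and in shDnmt3L 8 did. Each was picked as the highest of its interval, which favours a high rank. The matching share over tiles was not computed, so this count does not set the loci apart. Snrpn had the lowest-ranked top peak in each list.

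**Figure D1:**
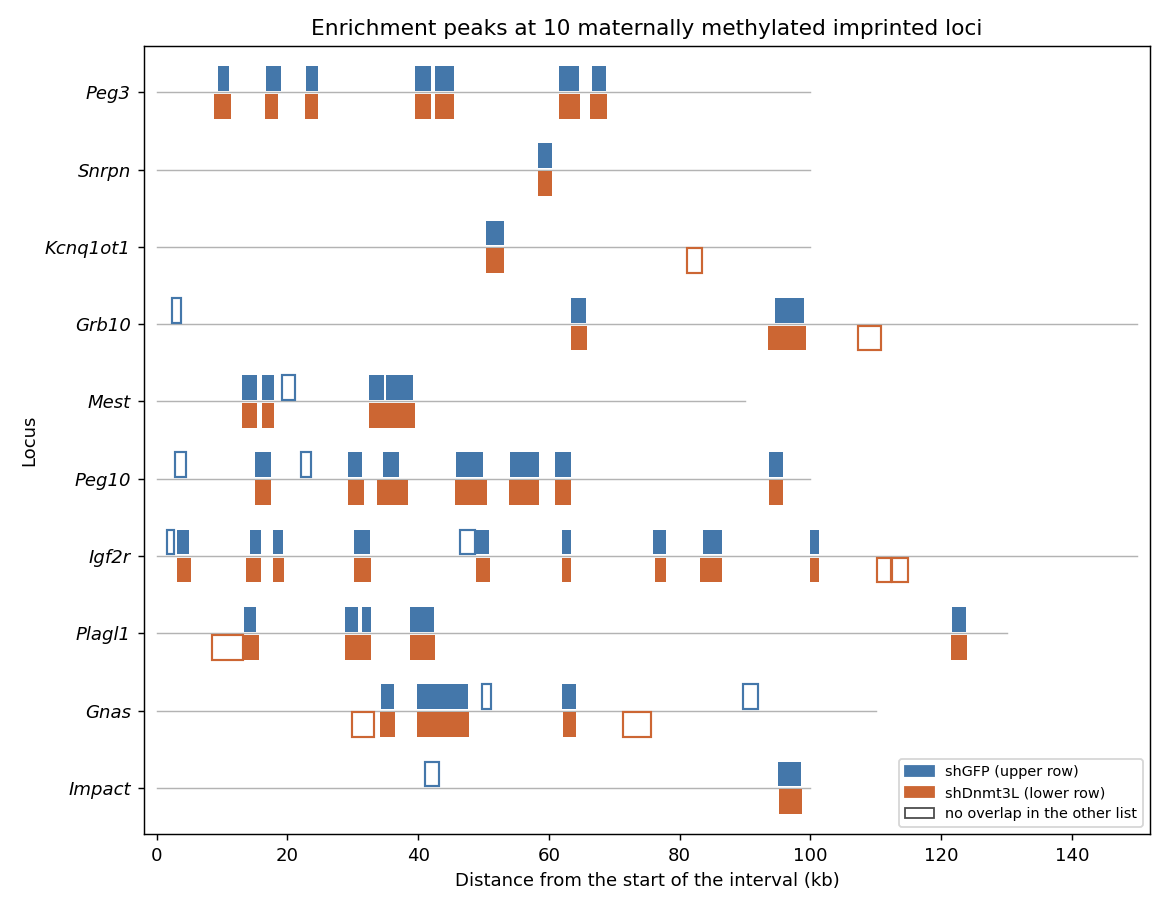
Peaks at the 10 loci, drawn to scale against distance from the start of each interval (kb), with shGFP above and shDnmt3L below the line that marks the interval. Open boxes are the 9 shGFP and 7 shDnmt3L peaks that overlap no peak of the other list, and filled boxes are the 40 and 38 that do.

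Among the paternally expressed genes, Peg3 and Snrpn had the same peaks in both libraries, with no peak lost or gained. Peg3 encodes a zinc finger protein known for its role in growth and maternal behaviour, and its neighbours in the gene table include Zim1 and Usp29. Its interval on chromosome 7, from 6620000 to 6720000, held 7 peaks in each list, and each had 1 partner. The strongest shGFP peak, from 6686574 to 6688752, was 2179 bp wide with a score of 373.27, rank 3329 of the list. A peak from 6681524 to 6684576 came just behind it with a score of 371.12. In shDnmt3L the order of these neighbours was the opposite, with scores of 276.95 for the peak from 6681503 to 6684808 and 259.99 for the peak from 6686291 to 6688897. The exception to the shared top peak thus rested on 2 adjacent peaks of close score. The length under peaks was 16.2 kb in shGFP and 17.9 kb in shDnmt3L.

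Snrpn encodes a protein of the splicing machinery and lies in the region that corresponds to the Prader-Willi locus of humans. Its interval on chromosome 7, from 67090000 to 67190000, held a single peak in each library and no other. In shGFP it ran from 67148300 to 67150431, with a score of 162.81. In shDnmt3L it ran from 67148268 to 67150463, with a score of 108.56. The shDnmt3L peak was 64 bp wider, 32 bp at each end. Neither flank of 100 kb held a peak in either library, so this was the most isolated of the 10 loci.

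Mest, a paternally expressed gene of the hydrolase fold family and neighbour of Copg2, had fewer and longer peaks in shDnmt3L. Its interval on chromosome 6, from 30650000 to 30740000, held 5 shGFP and 3 shDnmt3L peaks. The strongest shGFP peak, from 30685082 to 30689249, scored 654.28, and a peak of 2369 bp with a score of 132.96 lay just before it. In shDnmt3L a single peak of 7058 bp, from 30682447 to 30689504, covered both, with a score of 626.94. The shGFP peak from 30669159 to 30671129 had no partner. Its score of 50.84 was close to the lowest of the list, 50.01, and the nearest shDnmt3L peak was 1257 bp away. The peak from 30666116 to 30667902 had identical ends in both lists.

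Peg10, a gene derived from a retrotransposon and needed for the placenta, held the strongest peak of the 10 loci in shGFP. In shDnmt3L the top peak of Gnas scored higher, 1335.1. The Peg10 interval on chromosome 6, from 4650000 to 4750000, also adjoins Sgce and held 9 shGFP and 7 shDnmt3L peaks. The peak from 4695762 to 4699949 scored 1670.51 in shGFP and ranked 77 of 55292. Its shDnmt3L counterpart, from 4695672 to 4700554, scored 1237.35 and ranked 184 of 45579. In shGFP 2 further peaks reached the upper 1% of the list, with scores of 804.39 and 804.57. The second of these held the largest width difference of all pairs at the loci: 2557 bp in shGFP, from 4684564 to 4687120, and 4753 bp in shDnmt3L, from 4683631 to 4688383. It was wider at both ends, by 933 and 1263 bp. The 2 shGFP peaks without a partner, from 4652842 to 4654508 and from 4672023 to 4673551, had scores of 65.69 and 54.64. The total length under peaks was nearly the same, 23.2 kb in shGFP and 23.8 kb in shDnmt3L.

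Plagl1 encodes a zinc finger transcription factor, and the non-coding RNA Hymai starts beside it. Every one of its 5 shGFP peaks had a partner, while shDnmt3L had 1 wide peak with none. The interval on chromosome 10 ran from 12770000 to 12900000. The strongest peak ran from 12808743 to 12812461 in shGFP, with a score of 794.5, and ended 56 bp later in shDnmt3L, with a score of 508.26. The shDnmt3L peak without a partner, from 12778516 to 12783241, was 4726 bp wide with a score of 185.59. A shGFP peak began 173 bp beyond it, so it adjoined enrichment called in both libraries. Peaks of 2048 and 1466 bp in shGFP were covered by a single shDnmt3L peak of 4044 bp, from 12798814 to 12802857. The length under peaks was 11.2 kb in shGFP and 17.4 kb in shDnmt3L, a ratio of 1.56.

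Impact, a regulator of the translational response to amino acid shortage and neighbour of Osbpl1a, had 2 shGFP peaks and 1 shDnmt3L peak on chromosome 18 from 13090000 to 13190000. The strong peak was almost the same in both, 3512 bp from 13185105 to 13188616 in shGFP and 3510 bp from 13185173 to 13188682 in shDnmt3L. Its scores were 451.19 and 345.53. It lay near the end of the interval, beginning 95.1 kb past the interval's start in shGFP and 95.2 kb in shDnmt3L. The second shGFP peak, from 13131094 to 13133152, had a score of 76.84 and no partner, and the nearest shDnmt3L peak was 52021 bp away. A further peak in each list began 276 bp outside the interval, with scores of 89.83 and 73.68, and was not counted.

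Kcnq1ot1 is a long non-coding RNA, transcribed from the paternal chromosome within Kcnq1, that silences neighbours such as Cdkn1c. Its interval on chromosome 7, from 150430000 to 150530000, held 1 peak in shGFP and 2 in shDnmt3L. The common peak began on the same base, 150480380, and ended at 150483109 in shGFP and at 150483123 in shDnmt3L. Its scores were 544.65, rank 1413, and 436.64, rank 2185, each in its own list. The second shDnmt3L peak, from 150511069 to 150513426, was weak, with a score of 64.44, and the nearest shGFP peak was 27960 bp away. With this weak peak the length under peaks was 5.10 kb in shDnmt3L, against 2.73 kb in shGFP.

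Igf2r, a maternally expressed receptor that clears the growth factor IGF2, shares its locus with the antisense RNA Airn. It held the most peaks, 11 in each library, on chromosome 17 from 12850000 to 13000000. Its strongest peak ran from 12933600 to 12936410 in shGFP, with a score of 507.92, and from 12933050 to 12936442 in shDnmt3L, with a score of 491.64. The shGFP peaks from 12851579 to 12852719 and from 12896467 to 12898764 had no partner, with scores of 62.87 and 69.14. Their nearest shDnmt3L peaks were only 468 and 111 bp away. The shDnmt3L peaks from 12960106 to 12962247 and from 12962425 to 12964846 had no partner either, with scores of 71.67 and 68.97, and lay 8825 and 11144 bp from the nearest shGFP peak. The most negative width difference of all pairs was here. The peak from 12925894 to 12927916 in shGFP was 348 bp narrower in shDnmt3L.

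Grb10, an adaptor protein that restrains insulin signalling and lies beside Ddc, had 3 peaks in each library but not the same 3. The interval on chromosome 11 ran from 11830000 to 11980000. Its strongest peak was 4462 bp wide in shGFP, from 11924583 to 11929044, with a score of 415.49 and rank 2653. In shDnmt3L it was 5843 bp wide, from 11923432 to 11929274, with a score of 676.6 and rank 808. A shGFP peak from 11832301 to 11833737, with a score of 59.65, had no partner. A shDnmt3L peak of 3495 bp from 11937283 to 11940777, with a score of 138.05, had none, and lay 8239 bp from the nearest shGFP peak.

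Gnas encodes the alpha subunit of the stimulatory G protein and has several promoters, some marked on the maternal and one on the paternal chromosome. It held the widest peak of the 10 loci in both libraries, on chromosome 2 within 174080000 to 174190000. That peak began at 174119830 in both, and ended at 174127563 in shGFP and at 174127735 in shDnmt3L. It was 7734 bp wide with a score of 1136.3, rank 205, in shGFP, and 7906 bp wide with a score of 1335.1, rank 153, in shDnmt3L. Around it, each library had 2 peaks without a partner. In shDnmt3L they lay 1 on each side, and ran from 174109952 to 174113227, with a score of 112.21, and from 174151320 to 174155660, with a score of 206.5. In shGFP both lay beyond its end, and ran from 174129796 to 174131148 and from 174169742 to 174171995, with scores of 64.65 and 58.7. The shDnmt3L peaks were 3276 and 4341 bp wide, and the shGFP peaks 1353 and 2254 bp.

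The 9 shGFP peaks without a partner, at 6 loci, were narrow and weak, with widths of 1141 to 2298 bp and scores of 50.84 to 76.84. In the whole list, 47% of shGFP peaks scoring below 100 had no partner, and at the loci 9 of 21 had none. Of the 7 shDnmt3L peaks without a partner, 4 scored 100 or more and were 3276 to 4726 bp wide, at Grb10, Plagl1 and Gnas. At the loci 4 of 26 shDnmt3L peaks of this score lacked a partner, against 8.6% in the whole list, where such peaks had a median width of 4021 bp. The other 3, at Kcnq1ot1 and Igf2r, were 2142 to 2422 bp wide, within or near the width range of the shGFP peaks without a partner. Their scores were 64.44 to 71.67 in their own list. They were 3 of the 19 shDnmt3L peaks at the loci that scored below 100, against 16.4% in the whole list. With so few peaks, none of these counts sets the loci apart from the lists. The part that read depth plays in which weak peaks were called was not tested, since it is not known for either library.

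**Figure D2:**
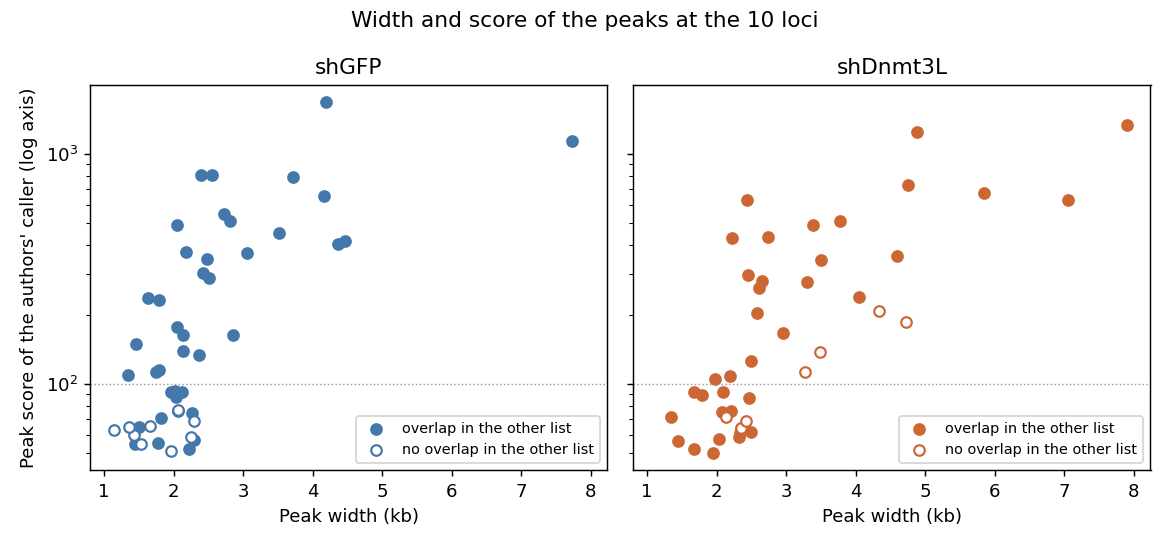
Width (kb) and score (log axis) of every peak at the 10 loci, for shGFP on the left and shDnmt3L on the right, with open circles for peaks that overlap none in the other list and a dotted line at a score of 100. The 9 open shGFP circles lie at or below 76.84, whereas 4 of the 7 open shDnmt3L circles lie above the line, at widths of 3276 to 4726 bp. Scores are not comparable between the panels, so the line need not mark the same strength in both.

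Peaks covered more of the 10 loci in shDnmt3L than in shGFP, 136 kb against 118 kb, although there were fewer of them. This was 15.1% more, against 5.23% more over the whole lists. The log2 ratio over the loci was 0.20. Its range from the counting error of the peak numbers, −0.41 to 0.82, spanned both signs. Length under peaks was greater in shDnmt3L at 8 of the 10 loci, the exceptions being Mest and Impact, and it was greater in 57% of the 13422 tiles of 100 kb with a peak in both lists. The median ratio over the loci was 1.11, and over the tiles 1.03. The side depended on the setting at 4 loci. Peg3 and Peg10 were less covered in shDnmt3L with intervals widened by 50 kb, and Igf2r was when only scores of 100 or more were used. Mest was more covered in shDnmt3L with widened intervals, with lists of equal length and with partnered peaks only.

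At 2 loci the length under peaks was at least 1.5 times higher in shDnmt3L, Kcnq1ot1 with a ratio of 1.87 and Plagl1 with 1.56. In the genome 13.3% of tiles passed this fold. At 1 locus, Impact, it was at least 1.5 times lower, with a ratio of 0.63, as in 13.7% of tiles. Each of these 3 ratios rested on 1 peak without a partner. Without such peaks the ratios were 1.01 at Kcnq1ot1, 1.13 at Plagl1 and 0.999 at Impact, and none of the 10 loci passed 1.5. Grb10, with 1.43 (log2 ratio 0.51), came next below the fold, and had 1.21 without them. It passed the fold at scores of 100 or more (log2 ratio 1.07), with lists of equal length (1.39) and with intervals narrowed by 20 kb (0.79).

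The difference in covered length had 2 parts. Partnered peaks covered 102 kb in shGFP and 113 kb in shDnmt3L, a ratio of 1.11, and over the whole lists this ratio was 1.13. Peaks without a partner covered 15.7 kb in shGFP and 22.8 kb in shDnmt3L, a difference of 7.05 kb towards shDnmt3L. Over the whole lists the difference between shDnmt3L and shGFP in such peaks had the other sign, −6.03 Mb. The 4 wide peaks at Grb10, Plagl1 and Gnas made up 15.8 kb of the 22.8 kb.

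**Figure D3:**
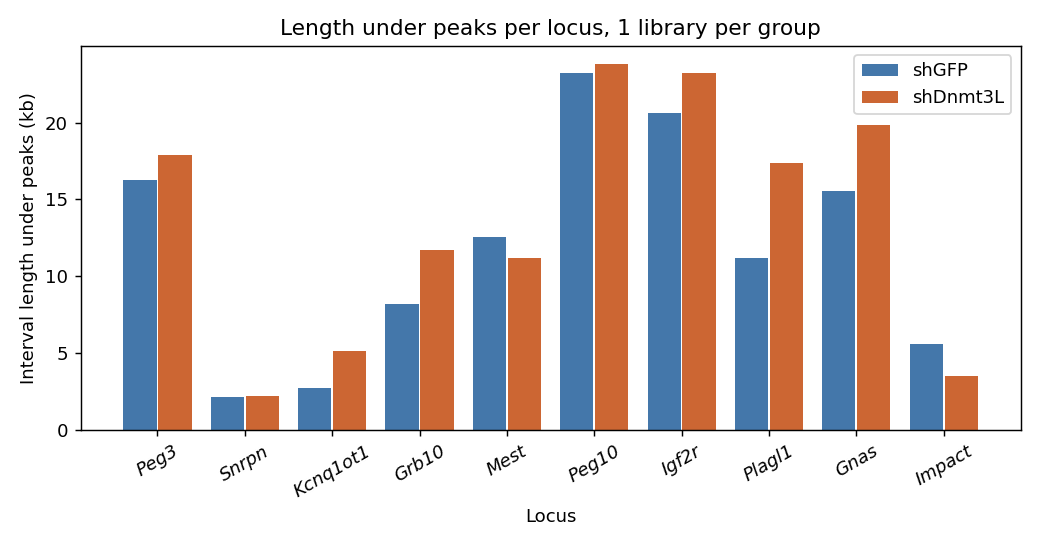
Length under peaks (kb, bars from 0) at each of the 10 loci in shGFP and shDnmt3L, 1 library each and hence without error bars. Bars are higher in shDnmt3L at 8 loci, with the widest gap at Plagl1 (11.2 and 17.4 kb), and lower at Mest and Impact.

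Most peaks that paired 1 to 1 at the loci were wider in shDnmt3L, as in the lists as a whole. Of 36 such pairs, 29 were wider in shDnmt3L, 4 narrower and 3 of equal width, and in the lists 81.7% of pairs were wider and 14.5% narrower. The median difference was 151.5 bp at the loci (quartiles 42.5 and 381 bp) and 145 bp over 37952 pairs (32 and 402 bp). At the loci 2 pairs, the Peg10 pair above and the first Peg3 pair (1629 and 2498 bp), were at least 1.5 times wider, against 8.6% of all pairs. In addition, 2 of 45 shDnmt3L peaks lay over 2 or more shGFP peaks, at Mest and Plagl1, against 3.27% of the whole list. In the other direction, 0 of 49 shGFP peaks lay over 2 or more shDnmt3L peaks, against 0.443% of the list. The top peaks of Snrpn, Kcnq1ot1, Plagl1 and Impact differed in width by no more than 64 bp.

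**Figure D4:**
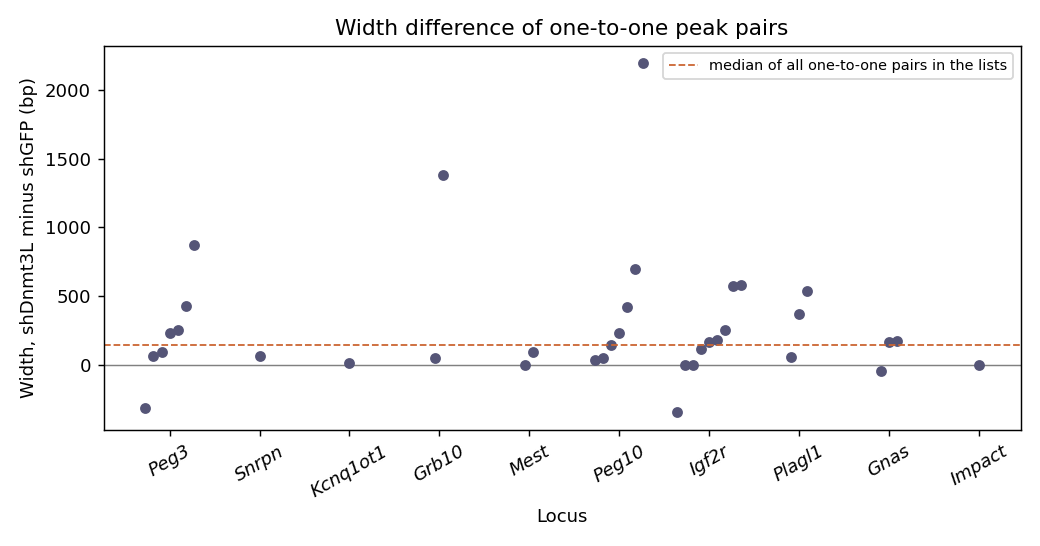
Width of the shDnmt3L peak minus that of its shGFP partner (bp) for the 36 pairs at the 10 loci, 1 point a pair, with the median of all pairs in the lists as a dashed line. Most points lie between 0 and 582 bp, and the highest are 2196 bp at Peg10 and 1381 bp at Grb10.

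Compared with the genome, the loci were rich in peaks. There were 4.34 shGFP and 3.98 shDnmt3L peaks per 100 kb, against 2.095 and 1.73 over the whole lists. Peaks covered 10.4% and 12.0% of the intervals against 4.48% and 4.72%. Snrpn, with 2.13% in shGFP and 2.20% in shDnmt3L, was below these genome values in both libraries. Kcnq1ot1 was below in shGFP (2.73%) and Impact in shDnmt3L (3.51%). Gnas and Peg10 made up 32.9% of the shGFP length under peaks at the loci. Of the peaks at the loci, 57.1% in shGFP and 57.8% in shDnmt3L scored 100 or more, against 48.0% and 49.5% of the lists. The upper 10% of each list held 17 of the 49 shGFP and 12 of the 45 shDnmt3L peaks. Flanks of equal length on both sides had 62 and 59 peaks and were covered to 5.88% and 6.61%. The covered length of these flanks was 1.12 times as great in shDnmt3L as in shGFP. This rested on the right flank of Kcnq1ot1, with 9.23 kb in shGFP and 25.05 kb in shDnmt3L, and without it the ratio was 1.005 (123.6 and 124.2 kb). Covered length was larger in shDnmt3L in 8 of 20 flanks. Both flanks of Snrpn and the right flank of Grb10 held no peak in either library, so they could differ in neither direction. The locus was more covered than either of its flanks at 5 loci in shGFP and at 8 in shDnmt3L. Kcnq1ot1 and Impact were below a flank in both libraries. Peg3, Grb10 and Gnas were below a flank in shGFP only. For Grb10 (8.19 kb, flank 8.32 kb) and Gnas (15.54 kb, flank 15.62 kb) this was a near tie, and for Peg3 it was not (16.24 kb, flank 20.63 kb). No share over the genome was computed for these counts.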

How the data were processed

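Genomic DNA of E14 cells was sonicated and enriched before sequencing, per the labels' protocols. The authors deposited 1 peak list per library, with a score for each peak. Its scale is not stated, and its lowest value was 50.01 in shGFP and 50 in shDnmt3L. Per the submitters' processing notes, the tools were MACS 1.4.1, Bowtie 0.12.7 and CASAVA 1.8, with mm9 as the build and no roles given. Not given in the sources used here were the depth, the input control and the handling of duplicates. Depth, fragment length and the control can all move the number and width of peaks.

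The comparisons used scipy 1.17.1, pandas 2.3.3 and numpy 2.4.6 under Python 3.11.15. A partner was a peak of the other list overlapping by at least 1 bp. Lengths were clipped to the interval, starts are 1-based, and tiles of 100 kb gave the genome background. Of the neighbouring genes, 12 of 13 names were in the GRCm38 gene table, used for names only. The overlap code was tested on a copy of the shGFP list with some peaks removed at random and some ends extended. Joined or split peaks were not simulated. The peaks named were the top peak of each locus and list, every peak without a partner and the pairs of most positive and most negative width difference; further peaks were chosen after their values were seen. The loci and lists were chosen with earlier results of these data known. Alternatives were equal list lengths, scores of at least 100, merging within 500 bp, other overlap and interval rules, and omission of the locus with most peaks.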

Additional observations from a re-analysis of the deposited data

How the results depend on the processing

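Among 123 alternative values, 121 lay inside a range set for each and 2 lay outside. That range was the counting interval for shares, that of the peak numbers for covered length (wide at single loci), an order-statistic interval for the median width difference, and a factor of 1.5 for peak numbers. The 2 that moved were peak numbers at scores of at least 100, 28 in shGFP and 26 in shDnmt3L, which that setting lowers by construction. At single loci the range was so wide, for example −6.25 to 6.34 at Snrpn, that lying inside it shows little. Omission of the Igf2r locus left the values of the other loci unchanged by construction. The count of 121 is therefore no measure of stability. The log2 ratio of covered length over all loci, 0.20, ranged from 0.14 with partnered peaks only, an alternative added after the data were seen, to 0.40 with lists of equal length. By number of peaks it had the other sign, −0.12, since there were fewer peaks in shDnmt3L. With lists of equal length 87.8% of shGFP and 75.6% of shDnmt3L peaks had a partner, so the order of the shares turned. Of 78 values for single loci, 7 changed sign. These were Igf2r at scores of 100 or more (log2 ratio −0.48), Mest with lists of equal length (0.42), with widened intervals (0.30) and with partnered peaks only (0.08), Peg3 (−0.12) and Peg10 (−0.05) with widened intervals, and Peg10 by number of peaks (−0.36). The ratio at Kcnq1ot1 was 0.01 on the log2 scale at scores of 100 or more and with intervals narrowed by 20 kb, and Plagl1 had 0.11 when narrowed. At Impact the narrowed interval held no shDnmt3L peak and so gave no value, and the ratio was −0.0008 at scores of 100 or more. No paired analysis was possible because only 1 library stood in each group. The unknown read depths limit what can be said of weak peaks.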

Other observations

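At 10 of the 36 pairs the peak began on the same base in both libraries, against 19.0% of all pairs. At 5 it ended on the same base, against 18.1%. The shared starts thus lay above the share of the lists and the shared ends below it. At 6 the shDnmt3L start lay exactly 32 bp outside, against 20.7%, and at 6 the end did, against 20.2%. In 3 pairs, 2 at Igf2r and 1 at Mest, both ends were identical, against 3.75% of all pairs. At Igf2r 1 pair was chosen after its values were seen. Its shGFP peak, from 12864208 to 12865996, scored 230.44, in the upper 14.7% of its list. The shDnmt3L partner, from 12863613 to 12865971, scored 64.39, only within the upper 78.7% of its own list. Scores are not comparable between the lists, and the share of all pairs that differ as much was not computed.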
